A study of Mus musculus with 24 samples.

Results

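Gene expression in perigonadal fat was compared between 5 Control and 8 AdipoQ-LPL males, gene by gene, on the arrays of animal numbers 289 to 295 and 422 to 437. These 13 mice were chosen by the animal number in the sample labels, out of 24 mice in the series. They are called the first array set here, and the 11 mice of numbers 842 to 877 (7 Control and 4 AdipoQ-LPL) the second array set. AdipoQ-LPL mice (AdipoQ-LpL -/+) carried a transgene for lipoprotein lipase (LPL) driven by the adiponectin promoter, which is active in adipocytes. The study describes its Control mice (AdipoQ-LpL -/-) as littermates, and which litter each of these 13 mice came from is not given here. All mice were on the C57BL/6 background, were 9.5 weeks old at the switch to a diet with 60% of calories from fat, and ate it for 10 days, first in calorimetry chambers and then housed singly. Every Control mouse and 2 AdipoQ-LPL mice (AdipoQ-LPL 5 and 6) had numbers 289 to 295, whereas the other 6 AdipoQ-LPL mice had numbers 422 to 437, a run of numbers that holds no Control mouse. Each array is 1 mouse, and values are log2 intensities normalized by the authors.

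LPL sits on the wall of capillaries in fat, where it splits the triglyceride of circulating lipoproteins so that adipocytes can take up fatty acids. Adipocytes also make fatty acids and cholesterol themselves, under transcription factors of the SREBP family: SREBP2 drives cholesterol synthesis and uptake when membrane sterol is low, and SREBP1c with ChREBP drives fatty acid synthesis when insulin and glucose are high. Fat tissue further holds resident macrophages, lymphocytes, vessels, fibroblast-like progenitors and a mesothelial cover, and RNA of a whole fat pad mixes them all. In such bulk samples, fewer cells of a type and less RNA per cell cannot be told apart.

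The tissue carried its defining genes. Adipoq, which encodes adiponectin, read 11.72 in Control 3 and 11.95 to 12.16 in the other 12 mice, and the median difference of 10 adipocyte markers between genotypes was 0.02 on the log2 scale (log2 differences are AdipoQ-LPL minus Control throughout). The arrays had medians of 6.98 to 7.08 over the tested clusters. Control 3, AdipoQ-LPL 8 and AdipoQ-LPL 10 stood apart: their median correlations with the other arrays were 0.944, 0.965 and 0.982, against at least 0.986 for the others, and the first principal component, with 52.7% of the variance, separated them. Genes of epithelium led that component. Epcam, an epithelial adhesion protein, read 8.60, 7.95 and 5.93 in these 3 mice and 3.96 to 4.78 in the others, and Mmp7, a protease of glandular epithelium, read 10.57, 10.12 and 8.74. Control 5 stood out for epididymis markers, whose mean was 1.46 above that of the 13 mice. Calls lost without these 3 mice are given with the lists below, and for single genes together after the lists.

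Between genotypes, 2 of 19281 tested clusters (0.0104%) passed limma's test at an adjusted p of 0.05. Tested were all clusters with a gene symbol and a mean above 5 in either group. At the study's own thresholds, a difference of at least 25% (the larger mean over the smaller) with an unadjusted p below 0.02, 219 clusters (1.14%) were called, 102 higher (0.529%) and 117 lower (0.607%) in AdipoQ-LPL mice, which came to 96 genes higher and 104 lower with 1 cluster a gene. The groups did not overlap for 71 clusters (0.368%). These unadjusted calls are read below against the share of all tested clusters, since single genes among them, other than Snd1 and Lrrc4, did not pass correction for multiple testing. Without the 3 mice the thresholds gave 192 clusters (0.996%, with 0.399% higher and 0.596% lower), and 109 of the 200 genes, 38 higher and 71 lower, were still called. Of the mice left out in turn, Control 1 moved the counts most: without this mouse, whose values lay with AdipoQ-LPL mice for many lipid genes, 366 clusters were at the thresholds and 15 at an adjusted p of 0.05. Over all 17836 genes the median difference was -0.003, and 8682 genes were higher.

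Snd1, which encodes a nuclease and RNA-binding coactivator, fell in AdipoQ-LPL mice. It read 8.99, 9.05, 8.98, 8.95 and 8.86 in Control 1 to 5, and 8.13, 8.31 and 8.38 as the lowest, median and highest of the AdipoQ-LPL mice. Every AdipoQ-LPL mouse lay below every Control mouse, and the log2 difference was -0.68 (SE 0.05, limma adjusted p = 5.18e-05, exact permutation p = 0.000777, the smallest that 1287 relabellings can give). Lrrc4, a synaptic adhesion protein whose gene lies inside Snd1 in RefSeq, rose: it read 4.84, 4.45, 4.79, 4.41 and 4.07 in Control mice and 5.22, 5.55 and 5.69 as the lowest, median and highest of AdipoQ-LPL mice. These groups did not overlap either (0.187% of all clusters were higher without overlap and 0.182% lower), and the difference was 0.98 (SE 0.13, limma adjusted p = 0.0205), although its call was lost without Control 2 or 4 (adjusted p = 0.121 and 0.127), without AdipoQ-LPL 6, 11 or 12 (0.0721, 0.0720 and 0.0668) and without the 3 mice that stood apart (0.0546). All Control values of Lrrc4 lay below the floor of 5, so it was tested only through its AdipoQ-LPL mean. With a floor of 6 it was not tested. In the second array set, measured on other mice, the differences of Snd1 and Lrrc4 were -0.68 and 1.41. None of the 8 nearest tested neighbours was called, among them Lep (-0.14, SE 0.07) and Rbm28 (-0.28, SE 0.07). With only AdipoQ-LPL 5 and 6 against the 5 Control mice, the differences were -0.61 and 1.06, and neither passed the test in that smaller fit (adjusted p = 0.999 for both).

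The largest fold of all belonged to Gm6484, the older name of Angptl8, a secreted protein induced by feeding that controls LPL activity through other angiopoietin-like proteins. It read 9.70, 9.69, 9.39, 9.81 and 9.03 in Control mice and 7.28, 7.60 and 9.24 as the lowest, median and highest of AdipoQ-LPL mice. The other 7 AdipoQ-LPL mice lay below every Control mouse, whereas AdipoQ-LPL 5, at 9.24, lay among them. The difference was -1.63 (SE 0.28, 3.09-fold lower, limma adjusted p = 0.156, exact permutation p = 0.00233), and without AdipoQ-LPL 5 it passed the test (adjusted p = 0.00388). Leaving out the mouse that lay among the Control mice was bound to widen the difference, so that pass is no support. With AdipoQ-LPL 5 and 6 as the sole AdipoQ-LPL mice it was -0.92 (adjusted p = 0.999). In the second array set it was -0.23. Lpl itself read 13.48, 13.57, 13.34, 13.50 and 13.51 in Control mice and 13.28, 13.43 and 13.49 in AdipoQ-LPL mice, with a log2 difference of -0.07 (SE 0.05, adjusted p = 0.764), so the arrays showed no higher Lpl signal in transgenic mice. The labels do not say whether the probes match the transgene's transcript. Among 12 genes of LPL maturation, control and lipid uptake, Gm6484 was the 1 gene at the study's thresholds. The plot of 12 genes in each mouse shows these levels.

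**Figure D1:**
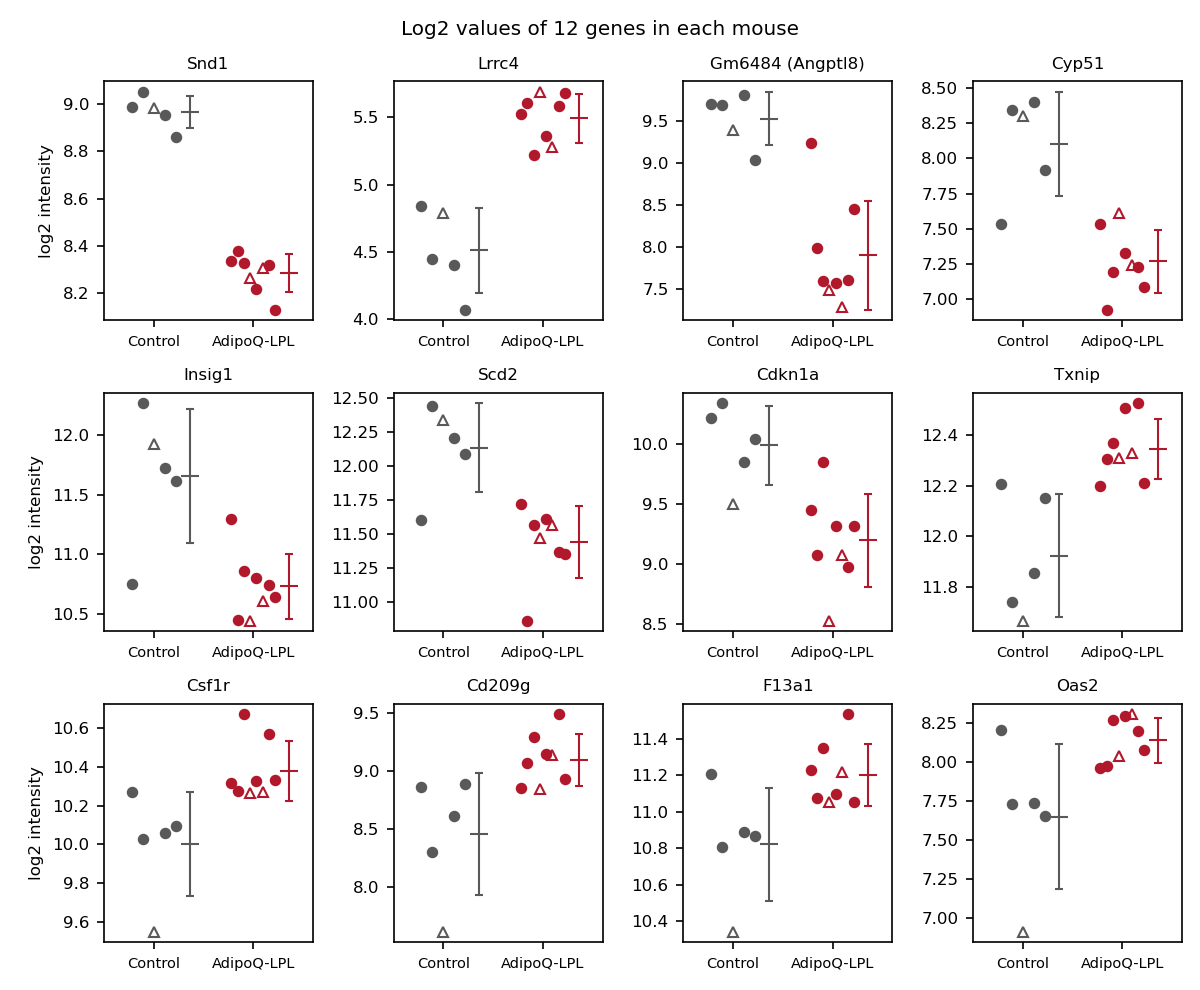
Log2 intensity of 12 genes in each of 5 Control (grey) and 8 AdipoQ-LPL (red) mice, where triangles are Control 3, AdipoQ-LPL 8 and AdipoQ-LPL 10 and bars are mean and SD. Snd1 and Lrrc4 separate the groups, whereas Control 1 lies among AdipoQ-LPL mice for Cyp51, Insig1 and Scd2 and Control 3 is lowest for Csf1r, Cd209g, F13a1 and Oas2.

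Genes of cholesterol synthesis were lower as a group in AdipoQ-LPL mice. All 20 measured members of the pathway had negative differences, 12 of them at the study's thresholds (0.607% of all clusters were lower there, and 51.4% had a negative difference), with a median of -0.38 against -0.003 for all genes. Another 7 SREBP2 targets were all negative too, 3 at the thresholds, with a median of -0.25. The promoters of 5 members that the account turns on are shown because these genes were lower together: each run is 300 bases around the gene's start in RefSeq, on GRCm38.p6, read 5′ to 3′ along the gene, with the letters CCAAT on either strand (ATTGG on the printed one) in capitals, since the factor NF-Y, a known partner of SREBP, binds such a box.
Cyp51 (chr5:4104648-4104947, minus strand): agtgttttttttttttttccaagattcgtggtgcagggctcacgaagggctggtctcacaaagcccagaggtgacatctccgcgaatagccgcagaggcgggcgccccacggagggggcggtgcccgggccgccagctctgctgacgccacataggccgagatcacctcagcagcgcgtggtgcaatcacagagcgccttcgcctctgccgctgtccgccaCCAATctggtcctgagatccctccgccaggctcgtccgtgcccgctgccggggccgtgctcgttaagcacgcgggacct
Hsd17b7 (chr1:169969156-169969455, minus strand): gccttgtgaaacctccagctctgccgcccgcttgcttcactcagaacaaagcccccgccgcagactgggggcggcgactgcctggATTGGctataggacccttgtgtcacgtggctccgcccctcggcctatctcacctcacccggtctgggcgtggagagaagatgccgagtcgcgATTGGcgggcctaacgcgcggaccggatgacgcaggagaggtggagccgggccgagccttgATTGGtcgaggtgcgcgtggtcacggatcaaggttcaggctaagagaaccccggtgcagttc
Idi1 (chr13:8885356-8885655, plus strand): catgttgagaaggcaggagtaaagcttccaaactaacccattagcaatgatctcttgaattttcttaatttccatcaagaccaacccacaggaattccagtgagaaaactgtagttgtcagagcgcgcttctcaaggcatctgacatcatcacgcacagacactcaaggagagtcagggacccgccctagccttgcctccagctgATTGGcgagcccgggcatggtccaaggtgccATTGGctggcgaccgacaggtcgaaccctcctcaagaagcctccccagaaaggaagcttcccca
Lss (chr10:76531355-76531654, plus strand): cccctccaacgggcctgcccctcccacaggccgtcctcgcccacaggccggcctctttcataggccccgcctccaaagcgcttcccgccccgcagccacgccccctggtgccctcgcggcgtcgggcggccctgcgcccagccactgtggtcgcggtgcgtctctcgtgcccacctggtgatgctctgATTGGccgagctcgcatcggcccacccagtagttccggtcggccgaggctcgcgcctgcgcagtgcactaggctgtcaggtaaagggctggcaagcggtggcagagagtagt
Insig1 (chr5:28071162-28071461, plus strand): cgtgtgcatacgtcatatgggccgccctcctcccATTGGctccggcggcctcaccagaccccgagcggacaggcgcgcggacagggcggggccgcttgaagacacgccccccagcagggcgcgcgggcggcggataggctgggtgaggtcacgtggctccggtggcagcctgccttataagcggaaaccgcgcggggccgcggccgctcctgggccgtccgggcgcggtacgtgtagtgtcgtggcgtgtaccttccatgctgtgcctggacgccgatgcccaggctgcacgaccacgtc
Of the 27 genes of both lists, 19 had a promoter in the RefSeq table, and 17 of these (89.5%) held CCAAT on either strand, against 41.1% of 27025 promoters in the table and 41.6% of those of tested genes. Acat2 and Aacs were the 2 without it. Among the 15 fatty acid synthesis genes with a promoter 12 held it (80%), among genes lower at the study's thresholds 40 of 76 (52.6%), and among genes higher 30 of 76 (39.5%). The other strings searched on both strands were forms of the sterol element and a core element of nuclear receptors, some of which contain each other. The longest form of the sterol element, of 10 letters, was in 0 of the 19 promoters (0.0999% of all), TCACCCCAC in 1 (0.614%), TCACNCCAC in 1 (1.44%), TCACNCNAC in 2 (3.15%) and GGTCA in 8 (43.6%). A match of letters is a description and no proof of a bound site.

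Along the pathway, small differences lay at early and at late steps. Hmgcs1, which joins acetoacetyl-CoA with acetyl-CoA, and Acat2, which makes acetoacetyl-CoA, lay at -0.29 and -0.18, Mvk and Mvd, a kinase and the decarboxylase after mevalonate, at -0.18 and -0.16, Fdft1, squalene synthase, at -0.12 and Sc5d, a desaturase near the end, at -0.22. None of these was at the thresholds. Pmvk, which phosphorylates mevalonate phosphate, read 8.65, 9.58, 9.06, 9.28 and 9.13 in Control mice and 8.45, 8.61 and 8.95 as the lowest, median and highest of AdipoQ-LPL mice, which gave -0.51 (SE 0.13). Idi1, which makes dimethylallyl pyrophosphate, read 7.80, 8.05, 7.85, 7.74 and 7.91 against 7.06, 7.39 and 7.74, and it was the 1 gene of the pathway whose groups did not overlap (-0.46, SE 0.10, exact permutation p = 0.00155). Fdps, the enzyme that builds farnesyl pyrophosphate, differed by -0.60 (SE 0.15).

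From squalene on, the differences ran from -0.03 (Ebp, an isomerase) to -0.83. Sqle, which oxidises squalene, read 6.80, 7.67, 7.80, 7.20 and 6.89 in Control mice and 6.29, 6.81 and 7.08 in AdipoQ-LPL mice, with wide overlap (-0.50, SE 0.18). Lss, which closes the sterol rings, read 7.49, 8.12, 7.76, 8.00 and 7.83 against 7.10, 7.22 and 7.61 (-0.54, SE 0.11). In Lss only AdipoQ-LPL 5 reached the range of the Control mice. Cyp51, the lanosterol demethylase, had the largest difference of the 20: it read 7.53, 8.35, 8.30, 8.40 and 7.92 in Control mice and 6.92, 7.23 and 7.61 in AdipoQ-LPL mice, that is -0.83 (SE 0.15, 1.78-fold lower, limma adjusted p = 0.182, exact permutation p = 0.00233). Control 1 was low among Control mice, and 6 of 8 AdipoQ-LPL mice lay below it. Nsdhl (-0.65, SE 0.15) and Hsd17b7 (-0.55, SE 0.11), the decarboxylating dehydrogenase and the ketoreductase of the C4 demethylation, showed the same order, and in Hsd17b7 7 of 8 AdipoQ-LPL mice lay below every Control mouse. Sc4mol, Tm7sf2 and Dhcr7, which act between lanosterol and cholesterol, lay at -0.44, -0.33 and -0.36.

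A protein of sterol sensing was lower as the enzymes were. Insig1, the protein that holds SREBP in the endoplasmic reticulum, read 10.75, 12.27, 11.93, 11.73 and 11.62 in Control mice and 10.44, 10.70 and 11.30 as the lowest, median and highest of AdipoQ-LPL mice (-0.93, SE 0.21, 1.90-fold lower, limma adjusted p = 0.328). Control 1 lay among the AdipoQ-LPL mice, and without it Insig1 passed the test (adjusted p = 0.0280), as did Cyp51 (0.0244), Lss and Hsd17b7 (0.0481 each). Leaving out the Control mouse nearest the AdipoQ-LPL mice was bound to widen such differences, so these passes are no support. Without Control 2, or without Control 4, only Snd1 passed. Srebf2, which encodes SREBP2, and Stard4, a sterol carrier, were not at the thresholds. On the other side of sterol balance, 10 of 12 genes of LXR targets and cholesterol handling were higher with a median of 0.09 and none at the thresholds, and Abca1, which exports cholesterol, lay at 0.19 (SE 0.07).

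Without the 3 mice that stood apart, 11 of the 20 synthesis genes were at the thresholds and the median was -0.37, and without Control 1 there were 13 with a median of -0.44. Without Control 2, highest of the Control mice for this list, there were 8 with a median of -0.26. With only AdipoQ-LPL 5 and 6 against the same Control mice the median was -0.31, with 19 of 20 genes lower and 2 at the thresholds. In the second array set, on other mice, the median was 0.04. The interaction of genotype with array set, which tests the difference between the 2 sets itself, had an unadjusted p below 0.05 in 12 of 20 genes, all more negative in the first set (5.24% of all clusters were so), but no cluster in the genome passed adjustment (lowest adjusted p 0.593).

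**Figure D2:**
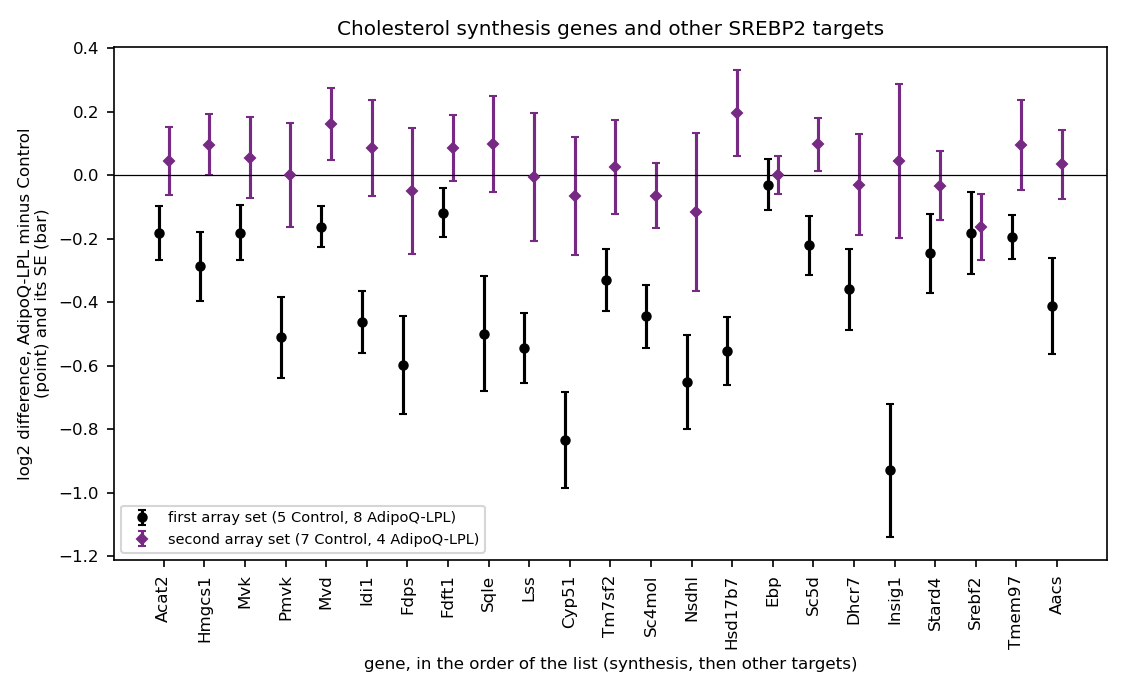
Log2 difference between AdipoQ-LPL and Control mice with its SE (y axis) for 18 cholesterol synthesis genes and 5 other SREBP2 targets (x axis), in the first array set (black) and in the second (purple). All 23 black points lie below 0, whereas the purple points scatter around it.

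Fatty acid synthesis followed the same pattern. Its 18 measured genes were all lower, 8 at the thresholds, with a median of -0.27. Scd2, a desaturase that makes oleate, read 11.61, 12.44, 12.34, 12.21 and 12.09 in Control mice and 10.87, 11.52 and 11.72 as the lowest, median and highest of AdipoQ-LPL mice (-0.69, SE 0.15, 1.62-fold lower). Control 1 was lowest of its group in Scd2 and 6 AdipoQ-LPL mice lay below it. Fasn, fatty acid synthase, read 12.15, 12.71, 12.54, 12.75 and 12.54 against 11.82, 11.93 and 12.57 (-0.45, SE 0.15). Acly, which makes cytosolic acetyl-CoA from citrate, read 10.27, 10.65, 10.66, 10.94 and 10.60 against 9.92, 10.17 and 10.62 (-0.45, SE 0.12). In both enzymes AdipoQ-LPL 5 was highest of its group. The other members at the thresholds were Acss2, which activates acetate (-0.68, SE 0.20), Me1, the NADPH-producing malic enzyme (-0.47, SE 0.11), Elovl6, an elongase (-0.43, SE 0.11), and the mitochondrial carriers Slc25a10 (-0.50, SE 0.14) and Slc25a1 (-0.33, SE 0.11). Scd1, the main desaturase of fat, lay at -0.03. Without the 3 mice 4 of 18 genes were at the thresholds, without Control 1 there were 10 and without Control 2 there were 6. With AdipoQ-LPL 5 and 6 as the sole AdipoQ-LPL mice 16 of 18 were lower, 1 at the thresholds, with a median of -0.31. The median in the second array set was -0.04.

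Genes that store fat and sugar were lower in part. Of 12 genes of triglyceride synthesis and glyceroneogenesis 10 were lower, with a median of -0.16. Agpat2, which adds the second acyl chain to glycerol phosphate, read 11.38, 12.19, 12.09, 12.09 and 12.03 in Control mice and 11.33, 11.48 and 11.78 in AdipoQ-LPL mice (-0.44, SE 0.12). Control 1 again lay with the AdipoQ-LPL mice, below 7 of them. Gpd1, the source of glycerol phosphate from glycolysis, lay at -0.33 (SE 0.12), and Mogat2, an acyltransferase, at -0.52 (SE 0.16). Pck1, the key enzyme of glyceroneogenesis, went the other way: it read 12.27, 11.51, 11.09, 11.56 and 12.18 against 11.91, 12.19 and 12.54 (0.53, SE 0.18, 1.44-fold higher, limma adjusted p = 0.505). It was the 1 gene of that list at the thresholds with a higher value, and it was no longer at them without the 3 mice (0.39). In glycogen storage, Gys2, a glycogen synthase, lay at -0.74 (SE 0.28) and Ppp1r3d, a targeting subunit of its phosphatase, at -0.39 (SE 0.14). G0s2 and Hilpda, both inhibitors of the lipase ATGL, lay at -0.35 (SE 0.13) and -0.40 (SE 0.14). G0s2 was -0.12 with AdipoQ-LPL 5 and 6 as the sole AdipoQ-LPL mice and -0.23 as the mean over its clusters, and Hilpda was -0.26 without Control 2. The list of lipolysis and lipid droplets had 8 of 16 genes lower and a median of -0.003.

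Of the 10 adipocyte markers 7 were higher, with Cfd the 1 at the thresholds. Several genes outside that list that fat cells also express were at the thresholds and lower. Arxes1, a PPARG target needed for fat cell differentiation in mouse cells, read 8.01, 9.00, 8.15, 8.53 and 8.61 in Control mice and 7.58, 7.80 and 7.94 in AdipoQ-LPL mice, with no overlap (-0.69, SE 0.14, exact permutation p = 0.000777). Arxes2, its close copy on the array, lay at -0.39 (SE 0.12), and signal of such near-identical copies can be shared. Mrap, an accessory protein of the ACTH receptor, lay at -0.33 (SE 0.09), Paqr9, a membrane protein of the progestin and adipoQ receptor family, at -0.75 (SE 0.24), and Slc20a1, a phosphate carrier, at -0.42 (SE 0.09) with no overlap. Fabp5, a fatty acid carrier of adipocytes and macrophages, lay at -0.39 (SE 0.12). Lep and Retn, the hormones leptin and resistin, were not at the thresholds (-0.14 and -0.10).

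Small downward shifts ran through lists of energy metabolism, mitochondrial ribosomal proteins and proteasome subunits. Of 71 subunits of oxidative phosphorylation 66 were lower, with a median of -0.08 and none at the thresholds. Ndufa11, a complex I subunit, read 9.73, 9.94, 9.73, 9.71 and 9.77 in Control mice and 9.42, 9.60 and 9.70 in AdipoQ-LPL mice, and was the 1 subunit without overlap (-0.19, SE 0.06; 0.182% of all clusters were lower without overlap). All 14 genes of glycolysis and the pentose phosphate pathway were lower with a median of -0.11, among them Pgd (-0.24, SE 0.06) and Tpi1 (-0.26, SE 0.08). Cycs, cytochrome c, did not overlap either (-0.26, SE 0.07). Timm9 and Timm10, chaperones that guide carriers across the intermembrane space, lay at -0.39 (SE 0.09) and -0.34 (SE 0.11), both at the thresholds. Of 72 mitochondrial ribosomal proteins 63 were lower with a median of -0.07, and Mrps18b, a protein of this ribosome that the list did not hold, lay at -0.35 (SE 0.08). Of 38 proteasome subunits 35 were lower with a median of -0.08, whereas Psmb8, which replaces a standard subunit in immune cells, lay at 0.20 (SE 0.07). Such counts are of genes, and in all 4 lists the mice of the groups overlapped in their mean deviation from the mean of all mice. It ran from -0.03 to 0.12 in Control and -0.10 to 0.08 in AdipoQ-LPL mice for oxidative phosphorylation. For glycolysis it was 0.01 to 0.15 against -0.16 to 0.08. Mitochondrial ribosomal proteins had -0.11 to 0.13 against -0.11 to 0.09, and the proteasome -0.03 to 0.10 against -0.09 to 0.07. In the second array set the medians of these 4 lists were 0.05, 0.06, 0.05 and 0.04, so the shifts had the other sign there. With only AdipoQ-LPL 5 and 6 against Control the medians were -0.06, -0.04, 0.000240 and -0.04, so that for the last 3 lists the shift was over 1.5 times smaller.

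Genes of growth arrest were mostly lower. The lists of the ATF4, hypoxia and unfolded protein responses lay near 0, whereas the heat shock list had a median of -0.11. Of 12 genes of the p53 and growth arrest list 10 were lower, 2 at the thresholds, with a median of -0.17. Cdkn1a, the cell cycle inhibitor p21, read 10.22, 10.34, 9.50, 9.85 and 10.04 in Control mice and 8.53, 9.20 and 9.85 as the lowest, median and highest of AdipoQ-LPL mice (-0.79, SE 0.19, 1.73-fold lower, limma adjusted p = 0.328, exact permutation p = 0.00388). In Cdkn1a 7 of 8 AdipoQ-LPL mice lay below every Control mouse. Cdkn2b, another such inhibitor, lay at -0.55 (SE 0.15), and Gadd45g at -0.37 (SE 0.14). Sesn1, a p53 target that restrains mTORC1, went the other way without overlap (0.25, SE 0.07). Ddit4, another mTORC1 inhibitor, lay at -0.48 (SE 0.11). Below the thresholds in fold but without overlap were Atf4, the transcription factor of the integrated stress response (-0.29, SE 0.06), and Hif1a, that of the hypoxia response (-0.25, SE 0.05). The lists of these responses had medians close to that of all genes, at -0.01 for the ATF4 response, -0.03 for hypoxia and 0.006 for the unfolded protein response.

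Lists of growth factor feedback and of matrix proteases held genes at the thresholds in both directions. Of 16 genes of the feedback list 10 were higher, with a median of 0.02, 1 at the thresholds higher (Fgf2) and 1 lower (Spry4). Spry4, an inhibitor of growth factor signalling, read 7.89, 8.39, 7.76, 7.59 and 7.85 in Control mice and 7.03, 7.41 and 7.51 in AdipoQ-LPL mice, with no overlap (-0.55, SE 0.12, exact permutation p = 0.000777). Dusp10, a phosphatase of stress kinases, lay at -0.40 (SE 0.14) and Id3, an inhibitor of helix-loop-helix factors, at -0.36 (SE 0.13). Of 14 matrix proteases 8 were higher with a median of 0.09, and at the thresholds were Mmp11, a stromelysin, at 0.37 (SE 0.14) and 2 lower genes. Adam12, a membrane metalloprotease, lay at -0.65 (SE 0.17), Adamts1, which cleaves matrix proteoglycans, at -0.53 (SE 0.20), and Ptx3, a pentraxin of innate immunity, at -0.42 (SE 0.13). With AdipoQ-LPL 5 and 6 alone Adamts1 lay at -0.12. Of the circadian clock list, Nr1d1, a repressor of the clock loop, read 9.26, 8.89, 9.24, 9.60 and 9.89 against 9.56, 10.03 and 10.19 (0.56, SE 0.16), Nfil3, which opposes its output, lay at -0.36 (SE 0.12), and Cry1, without overlap, at -0.28 (SE 0.07). The list as a whole had a median of -0.02, and the hour at which each mouse was killed is not given in the labels.

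Higher in AdipoQ-LPL mice were genes of several kinds. Txnip, a glucose-induced arrestin that limits glucose uptake, read 12.21, 11.74, 11.67, 11.85 and 12.15 in Control mice and 12.20, 12.32 and 12.53 as the lowest, median and highest of AdipoQ-LPL mice (0.42, SE 0.10, 1.34-fold higher, limma adjusted p = 0.328). All but AdipoQ-LPL 5 lay above every Control mouse. Its relative Arrdc3 lay at 0.46 (SE 0.15), but at 0.09 with AdipoQ-LPL 5 and 6 alone. Eif4ebp3, a brake on translation, read 6.90, 6.93, 7.09, 6.79 and 6.68 against 7.14, 7.22 and 7.28, without overlap (0.34, SE 0.06, exact permutation p = 0.000777). Cfd, the adipocyte protease adipsin, lay at 0.43 (SE 0.15), Cited2, a transcriptional coregulator, at 0.47 (SE 0.14), Fgf2, a growth factor, at 0.42 (SE 0.12), and Slc7a8, an amino acid carrier, at 0.47 (SE 0.17). The imprinted gene Nnat lay at 0.38 (SE 0.14) and Peg3, below the thresholds, at 0.31 (SE 0.11), with 0.31 and 0.65 in the second array set.

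Genes of resident macrophages were higher together. All 13 measured markers had positive differences, 5 at the thresholds (0.529% of all clusters were higher there, and 48.6% had a positive difference), with a median of 0.35. Csf1r, the receptor these cells need to survive, read 10.27, 10.03, 9.55, 10.06 and 10.10 in Control mice and 10.27, 10.32 and 10.67 as the lowest, median and highest of AdipoQ-LPL mice (0.38, SE 0.11, limma adjusted p = 0.473, exact permutation p = 0.00155). In Csf1r 7 of 8 AdipoQ-LPL mice lay above every Control mouse. Cd209g, a lectin, read 8.86, 8.30, 7.61, 8.62 and 8.89 against 8.84, 9.11 and 9.49 (0.64, SE 0.19). F13a1, a transglutaminase, read 11.21, 10.81, 10.34, 10.89 and 10.87 against 11.05, 11.16 and 11.53 (0.38, SE 0.12). Timd4, a receptor for dying cells, lay at 0.41 (SE 0.14), Folr2, a folate receptor, at 0.42 (SE 0.16), and Mrc1, the mannose receptor, at 0.31 (SE 0.10). In each of these genes Control 1 lay within the range of the AdipoQ-LPL mice, and Control 3 was lowest of all mice.

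Control 3 carried part of that difference. Its mean over the 13 markers lay 0.77 below that of the 13 mice, against -0.22 to 0.15 in the other Control mice and -0.06 to 0.40 in AdipoQ-LPL mice. Without Control 3 all 13 genes were still higher, with a median of 0.21 and 1 at the thresholds, and without the 3 mice that stood apart the median was 0.28, again with 1. In the second array set 12 of 13 were higher (57.1% of all clusters were) with a median of 0.14. The epithelial genes were high in Control 3, where the macrophage values were low. In AdipoQ-LPL 8 and 10, where the epithelial genes were also high, the mean over the 13 markers lay at -0.06 and 0.13. The part of the epithelial genes in the result was not tested. Myeloid genes outside the list are named next because they were at the thresholds, so they add no separate support. Cd33, an inhibitory lectin, had no overlap (8.79 to 9.14 in Control mice, 9.20 to 9.46 in AdipoQ-LPL mice, 0.36, SE 0.07), and it was 0.32 without the 3 mice. P2ry12 and P2ry13, receptors for extracellular nucleotides, lay at 0.43 (SE 0.09) and 0.46 (SE 0.12), Cybb, a subunit of the phagocyte oxidase, at 0.42 (SE 0.14), Lyz1, a lysozyme, at 0.53 (SE 0.19), Tlr7, a sensor of RNA, at 0.40 (SE 0.13), and Btk, a kinase of myeloid and B cells, at 0.35 (SE 0.11). AdipoQ-LPL 7 was highest for Cybb (10.39) and Cd14 (8.17). Without Control 3, Cd33, Cybb, Lyz1, Tlr7, Btk and Cd14 were no longer at the thresholds. Markers of lipid-associated and inflammatory macrophages, in contrast, had a median of -0.05, with 4 of 10 higher.

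Other immune and surface lists were higher in smaller steps. Of 13 complement genes 12 were higher with a median of 0.20 and none at the thresholds: C3, the central component, lay at 0.31 (SE 0.10) and C4b at 0.28 (SE 0.09), and in the second array set the median of the list was -0.01. Of 18 interferon response genes 17 were higher with a median of 0.21, and Oas2 and Oasl2, sensors of viral RNA, were at the thresholds (0.49, SE 0.16, and 0.52, SE 0.17). Oas2 read 8.20, 7.73, 6.91, 7.74 and 7.66 in Control mice and 7.96, 8.14 and 8.31 in AdipoQ-LPL mice, so that Control 3 was lowest and Control 1 lay among the AdipoQ-LPL mice. The interferon list rested on few mice: its median was 0.11 without Control 3, 0.12 without AdipoQ-LPL 8 and 0.03 without all 3 mice that stood apart. Ncr1, an activating receptor of NK cells, lay at 0.44 (SE 0.10). Of 9 NK markers on the array 5 were above the floor, and all 5 were higher with a median of 0.29, against -0.06 in the second array set. Of 12 B cell markers on the array 9 were above the floor, and all 9 were higher with a median of 0.15, against -0.39 in the second array set. T cell markers had 11 of 12 higher with a median of 0.11. The median Control level of the NK, B and T cell markers was 6.07, 5.64 and 5.745, near the floor of 5. A marker that passed the floor only by its AdipoQ-LPL mean was bound to be higher, and such markers were not counted apart. Mesothelium markers had 10 of 11 higher with a median of 0.34 and none at the thresholds. Without Control 1, highest of the Control mice for this list, 6 were at them, and in the second array set the list's median was -0.18.

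**Figure D3:**
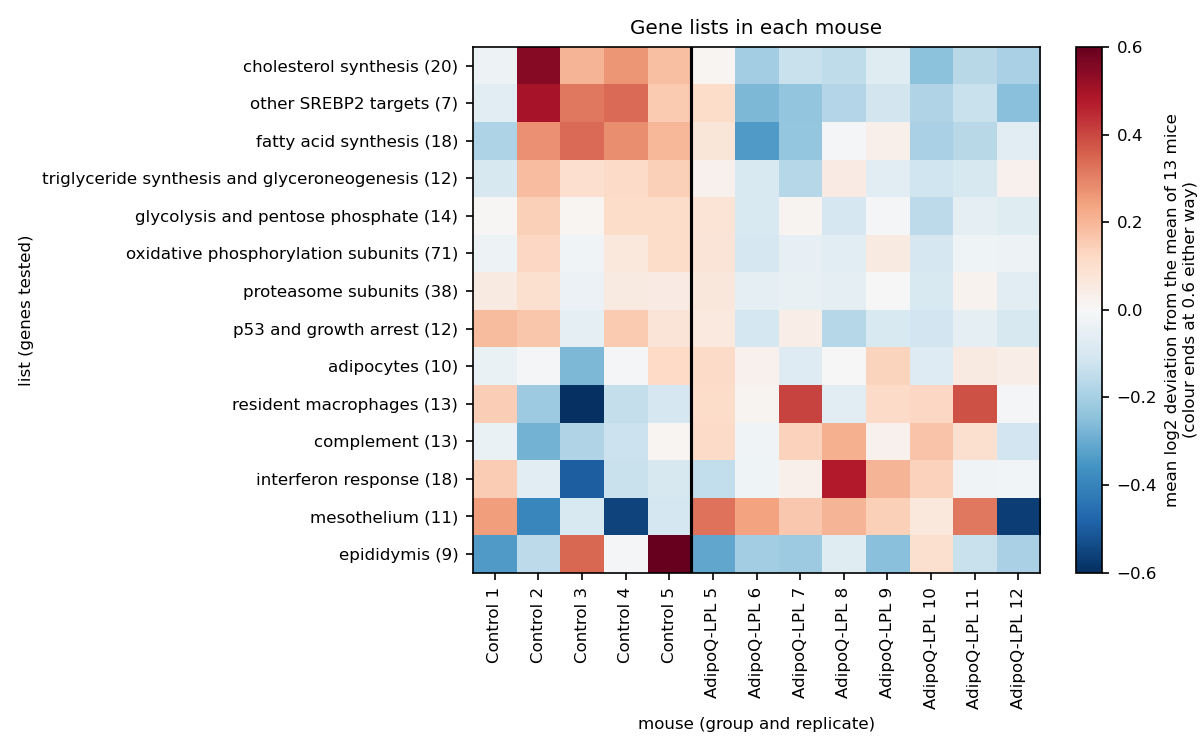
Mean deviation of each gene list from the mean of the 13 mice, on the log2 scale (colour), for 14 lists (y axis, with the number of genes tested) in each mouse (x axis). The cholesterol synthesis list is below 0 in Control 1 (-0.03) and above it in the other Control mice, and the resident macrophage list is lowest in Control 3.

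Mice of a group were not alike in the lipid genes. The mean deviation of the cholesterol synthesis list was -0.03, 0.55, 0.20, 0.26 and 0.18 in Control 1 to 5, and -0.24, -0.16 and 0.01 as the lowest, median and highest of AdipoQ-LPL mice, the highest being AdipoQ-LPL 5. The fatty acid synthesis list had -0.19, 0.28, 0.34, 0.28 and 0.20 in Control mice and -0.34, -0.12 and 0.07 in AdipoQ-LPL mice. Control 1 was thus the Control mouse nearest the AdipoQ-LPL mice, and AdipoQ-LPL 5 the AdipoQ-LPL mouse nearest the Control mice, in both lists. Adipocyte markers had a mean deviation of -0.04, -0.01, -0.27, -0.01 and 0.12 in Control mice and -0.08, 0.03 and 0.13 in AdipoQ-LPL mice, with 0.12 in AdipoQ-LPL 5, and their part in the order of the mice was not tested.

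Of the genes named above, 77 were at the study's thresholds over the 13 mice, and without the 3 mice that stood apart 53 of them still were. No longer at them were Sqle, Slc25a10, Slc25a1, Acss2 and Fasn of lipid synthesis, Agpat2, Gpd1, Pck1 and Hilpda of fat storage, Mrap, Cfd, Nnat, Cited2 and Slc7a8, and, of the immune genes, Csf1r, F13a1, Timd4, Folr2, Cd33, Cybb, Tlr7, Cd14, Oas2 and Oasl2. These kept their sign, and the difference was over 1.5 times smaller for Oas2, Oasl2 and Cited2 (0.30, 0.30 and 0.31). With 1 mouse left out, 8 to 29 of the 77 were no longer at the thresholds, 29 of them without Control 2 and 21 without Control 4. Nfil3 was -0.23 without Control 2, and Lyz1, Folr2 and Slc7a8 were 0.33, 0.26 and 0.29 without Control 3, each over 1.5 times smaller. The cholesterol synthesis list had 8 genes at the thresholds without Control 2.

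The run of animal numbers entered the comparison through its groups. With AdipoQ-LPL 5 and 6 as a group of their own, 133 clusters (0.69%) differed from Control at the study's thresholds and 72 (0.373%) differed between the AdipoQ-LPL mice of numbers 422 to 437 and AdipoQ-LPL 5 and 6. All 200 genes called over the 13 mice kept their direction in AdipoQ-LPL 5 and 6, with median differences of 0.34 for the higher and -0.38 for the lower, which are part of the comparison that chose them. When the mice of numbers 422 to 437 were left out, 66 of the 77 named genes were no longer at the thresholds and 11 still were, in that smaller fit. Of the 77 named genes 22 had a difference over 1.5 times smaller there, among them Lss (-0.32), Hsd17b7 (-0.33), Idi1 (-0.29), Gpd1 (-0.13), Cdkn2b (-0.32), Dusp10 (-0.16), Id3 (-0.17) and Oasl2 (0.26). The list medians there were -0.10 for triglyceride synthesis, -0.09 for growth arrest, 0.03 for the interferon response, 0.12 for NK cells, 0.03 for B cells, 0.07 for T cells and 0.64 for mesothelium. For the 6 other AdipoQ-LPL mice the run and the genotype cannot be told apart.

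In the second array set the same thresholds gave 283 clusters (1.47%). Of the 96 genes higher in the first set 66 (68.8%) were higher in the second, against 58.2% of all genes higher in the first, and of the 104 lower ones 42 (40.4%) were lower, against 44.5%. Only 3 of the 200 genes were at the thresholds in both sets. The sets differ in animal numbers and array medians, and what else differed is not stated in the labels. The interaction test gave 0 clusters (0%) at an adjusted p of 0.05 by limma, and 1552 (8.05%) at an unadjusted p of 0.05, so no single gene was shown to differ between the sets.

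**Figure D4:**
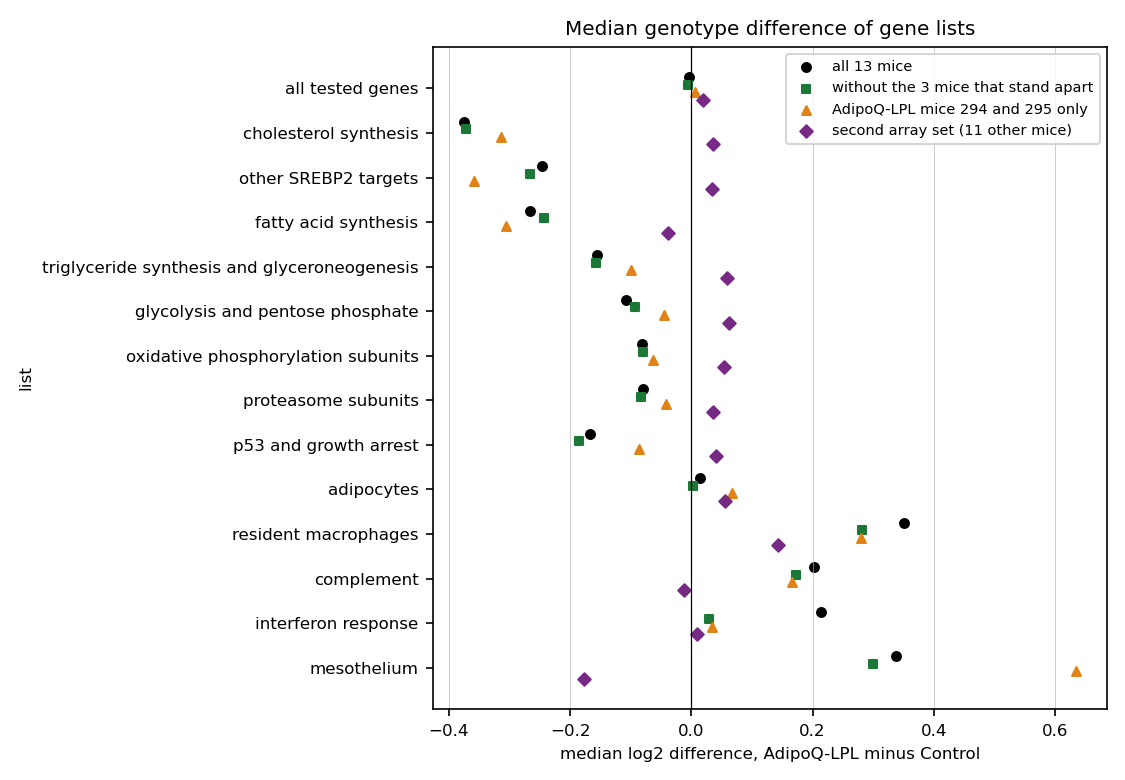
Median log2 difference between AdipoQ-LPL and Control mice (x axis) of each gene list (y axis) over all 13 mice, without the 3 mice that stood apart, with AdipoQ-LPL 5 and 6 (numbers 294 and 295) as the sole AdipoQ-LPL mice, and in the second array set. Lipid synthesis lists lie left of 0 in the first set and near 0 in the second, and the resident macrophage list lies right of 0 in all 4 settings.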

How the data were processed

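Perigonadal fat RNA of each mouse was hybridised to 1 Affymetrix mouse exon array. The deposited matrix holds, for 41345 transcript clusters, log2 values that the authors made by RMA (background correction, quantile normalization and probe summary). Gene symbols came from the authors' workbook, whose group means (log2, r = 0.987 for both genotypes with means of the matrix) served to check the match of cluster identifiers. The columns of the authors' own comparisons (p-values, ratios, fold changes and scores) were not used. For RMA, for Partek, which made the workbook, and for the clusters' genome build, the version is not given in the sources used here.

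The 19281 clusters with a symbol and a mean above 5 in either group were fitted with limma 3.58.1 in R 4.3.3 (statmod 1.5.0), two-sided, with Benjamini-Hochberg adjustment. Exact permutation tests used all 1287 relabellings of the mice. Tables and figures used Python 3.11.15, pandas 2.3.3, numpy 2.4.6 and matplotlib 3.10.9. A gene was represented by its cluster of highest mean. The fit was tested on simulated data. Precision is limited by the number of arrays. Mice are the replicates, and each p-value sets the difference between groups against the spread of mice within groups. Any difference between the runs of animal numbers is part of that group difference.

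The mice, the gene lists and the alternatives were chosen with earlier results of these data known. Named genes were those at an adjusted p of 0.05, the 15 of lowest p and the 8 of largest fold in each direction at the study's thresholds, up to 4 of lowest p in each list, the 5 of lowest p in each direction of the interaction, and genes the study names. Chosen after their values were seen were Acss2, Fasn, Scd1, Dhcr7, Fdps, Pmvk, Hmgcs1, Acat2, Srebf2, Stard4, Tm7sf2, Slc25a1, Gpd1, Mogat2, Hilpda, Arrdc3, Cited2, Folr2, Mrc1, P2ry13, Cybb, Btk, Tlr7, Cd14, Cdkn2b, Ppp1r3d, Arxes2, Dusp10, Mrap, Slc7a8, Timm9, Timm10, Cycs, Mvk, Mvd, Fdft1, Sc5d, Ebp, Mmp11, Epcam and Mmp7. Alternatives were other floors, tests, scalings and cluster choices, the run of animal numbers as a block, omission of the numbers 422 to 437 and of each mouse in turn. Omission of the 3 mice that stood apart was added after seeing the data. Values of some members of the sterol lists are not reported here, and these genes count in their lists. The promoter table holds RefSeq sequence of GRCm38.p6.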

Additional observations from a re-analysis of the deposited data

Results flagged for a closer look

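Of 238 groups of values (119 named genes in both genotypes), 14 held a mouse far from all others of its group, by the gap to the nearest mouse relative to the whole range. Chance gives about 1 in 20 such groups. All values here are log2 intensities. AdipoQ-LPL 5 was far above the other AdipoQ-LPL mice for Acly (10.62, next 10.25) and G0s2 (9.608, next 9.114). AdipoQ-LPL 7 was far above them for Cybb (10.39, next 9.695) and Cd14 (8.173, next 7.666) and below them for Cfd (12, next 12.57), and AdipoQ-LPL 6 was below them for Scd2 (10.87, next 11.35). Control 1 was far below the other Control mice for Agpat2 (11.38, next 12.03) and Pgd (11.04, next 11.24). Control 2 was above them for Ndufa11 (9.935, next 9.769), Slc20a1 (8.836, next 8.444) and Cd209c (6.434, next 6.174). Control 3 was below them for Adipoq (11.72, next 12.05), Mogat2 (6.765, next 7.412) and Slc7a8 (9.803, next 10.57).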

How the results depend on the processing

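The number of clusters at an adjusted p of 0.05, 2 by limma, was 5 with a floor of 6 or with an intensity trend and robust prior, 7 with array weights, 1 by the methods' t-test, with the run of numbers as a fixed block or without the 3 mice that stood apart, and 0 without the AdipoQ-LPL mice of numbers 422 to 437. With the run as a random block it was 499, where the estimated correlation within runs was negative (-0.103), which narrows the errors of a comparison that lies between runs. Without each mouse in turn it was 1 to 15. The 219 clusters at the study's thresholds became 133 with the fixed block, 432 with the random block, 112 without numbers 422 to 437, 25 at 1.5-fold and 154 to 366 without each mouse in turn, and centring gave 105 higher and 101 lower. The interaction gave 0 under every alternative run. Snd1 lost its call in 1 alternative, without numbers 422 to 437 (-0.61, adjusted p = 0.999), and Lrrc4 also by the methods' t-test (adjusted p = 0.107) and with the fixed block (0.489). With a floor of 6 Lrrc4 was not tested, so it was not among the 5 clusters called there. Over 119 named genes and up to 26 settings each, 0 of 3086 values changed sign. Many of these genes were chosen for a low p or large fold in these 13 mice. Since the settings reuse the same arrays, few changes of sign could arise. On other mice, in the second array set, 108 of the 200 genes at the study's thresholds (54%) kept their sign, against 51.2% of all tested genes. Of 13 lists, 1 changed sign in 1 of 16 settings, the mitochondrial ribosomal proteins without numbers 422 to 437 (0.000240). No paired analysis was possible because the groups share only 1 replicate number.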

Other observations

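Some groups of genes described above only in brief or not at all are given here by their counts and medians, beside a median of -0.003 over all genes. Of 17 proliferation genes 15 were higher in AdipoQ-LPL mice, with a median difference of 0.06 on the log2 scale, and 1 had an unadjusted p below 0.05. Without the 3 mice that stood apart the median was 0.11 with 17 of 17 higher. The list was high in AdipoQ-LPL 7 and 5 (mean deviations of 0.60 and 0.28), below 0 in the other 6 AdipoQ-LPL mice, and its median over mice was -0.04 in both genotypes. Of 12 heat shock genes 10 were lower with a median of -0.11, and in the second array set the median was -0.06. Clusters named for small nucleolar RNAs were higher in 65 of 86 cases with a median of 0.09, against -0.12 in the second array set, and -0.01 with AdipoQ-LPL 5 and 6 as the sole AdipoQ-LPL mice. Markers of endothelium (median 0.04 over 12 genes), of smooth muscle and pericytes (-0.06 over 8), of adipose progenitors and fibroblasts (0.08 over 12) and of brown and beige adipocytes (0.01 over 7) had no median beyond 0.1 either way, and without the 3 mice these medians were -0.01, -0.05, 0.02 and -0.06.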
